A study of Mus musculus with 4 samples.

Results

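The 245 regions described here lay inside the bodies of protein-coding genes, away from the gene ends, and were bound by RUVBL2 in both ChIP libraries of the mouse hypothalamus. They were chosen by a rule on position, out of 3111 shared regions. A shared region is the joined interval of overlapping peaks of both libraries, and it was kept where its midpoint fell within a protein-coding gene and over 3 kb from every protein-coding gene end in the RefSeq genes of GRCm38.p6. The 245 regions made up 7.88% of the shared regions (exact 95% binomial interval 6.95 to 8.88). They lay in 241 genes, or 1.11% of the 21779 protein-coding genes. Another 2784 regions lay within 3 kb of a gene end, 81 outside protein-coding genes and 1 on an unplaced scaffold.

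RUVBL2 was mapped by ChIP-seq, which sequences the DNA pulled down with a protein after fixation. The tissue was hypothalamus of WT male C57BL/J mice aged 8 weeks, fixed in 1% formaldehyde for 10 min, and no group differed in genotype or treatment. There were 2 RUVBL2 ChIP libraries and 2 input libraries made without antibody, and the values used were the peaks of the ChIP libraries, 3943 in replicate 1 and 6403 in replicate 2. The peak names of the second list begin with Hyp3 while its sample title begins with Hyp2, and it was taken as replicate 2 because GEO files it under that sample. The labels do not say whether the replicates came from separate animals, so the spread between them may be technical. The median peak rested on a summit pileup of 16 fragments in replicate 1 and 22 in replicate 2. Whole hypothalamus mixes many cell types, and a peak list cannot tell binding in few cells from weaker binding in many.

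RUVBL2 is an AAA+ ATPase that works with RUVBL1 in the INO80 and SRCAP remodellers, in the TIP60 acetyltransferase complex and in the R2TP chaperone complex. The remodellers and TIP60 act on nucleosomes beside transcription start sites. Many mammalian genes start transcription from several places: an alternative promoter lies inside the longest form of the gene, so a region far from the gene's outer end can still sit at a start. Introns also hold other genes, among them long non-coding RNA (lncRNA) and microRNA genes, which have starts of their own.

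The starts used here came from a RefSeq table of promoter windows of GRCm38.p6, each running from 250 bases before a start to 50 bases after it, with strand. It listed a start for 80.3% of protein-coding genes, and for the host gene of 207 of the 245 regions. Starts of 1 gene within 1 kb of each other were taken as 1 start. The stretches printed next are the 150 bases just before a start, from RefSeq, 5′ to 3′ on the strand of the gene. They are shown because the findings turn on them: the first 6 belong to the best-ranked regions at a start of the host gene. Capitals mark any of 8 motifs, listed with their letters further on, on either strand.

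Nfyc, start under the region, chr4:120825742-120825891, minus strand: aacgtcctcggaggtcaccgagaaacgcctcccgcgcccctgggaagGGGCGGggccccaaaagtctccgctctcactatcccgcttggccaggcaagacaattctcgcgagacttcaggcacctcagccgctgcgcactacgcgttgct
Tnrc6a, chr7:123123735-123123884, plus strand: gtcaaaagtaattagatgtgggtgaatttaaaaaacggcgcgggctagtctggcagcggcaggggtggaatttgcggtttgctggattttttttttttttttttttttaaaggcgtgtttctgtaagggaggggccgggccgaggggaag
Gabpb1, chr2:126675353-126675502, minus strand: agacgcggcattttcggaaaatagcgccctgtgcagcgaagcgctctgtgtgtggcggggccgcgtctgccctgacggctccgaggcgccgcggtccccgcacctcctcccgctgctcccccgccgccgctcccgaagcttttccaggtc
Phip, chr9:82975490-82975639, minus strand: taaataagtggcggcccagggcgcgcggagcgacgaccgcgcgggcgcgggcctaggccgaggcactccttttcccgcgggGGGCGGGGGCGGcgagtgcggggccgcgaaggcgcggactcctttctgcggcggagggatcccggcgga
Kansl1, chr11:104442292-104442441, minus strand: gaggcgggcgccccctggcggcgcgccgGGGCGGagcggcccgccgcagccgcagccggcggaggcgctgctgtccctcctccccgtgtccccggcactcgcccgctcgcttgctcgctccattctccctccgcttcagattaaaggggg
Zbtb38, chr9:96719851-96720000, minus strand: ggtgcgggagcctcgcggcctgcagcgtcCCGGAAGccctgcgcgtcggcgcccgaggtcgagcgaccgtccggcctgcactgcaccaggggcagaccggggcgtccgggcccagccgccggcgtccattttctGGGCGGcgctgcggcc

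The second set compares starts within 1 gene. Nfyc has another listed start with no region within 1 kb. Dido1, which encodes a PHD-finger chromatin protein, has 3 listed starts: the outer one and the middle one each held a shared region, and the innermost did not.

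Nfyc, start without a region, chr4:120815714-120815863, minus strand: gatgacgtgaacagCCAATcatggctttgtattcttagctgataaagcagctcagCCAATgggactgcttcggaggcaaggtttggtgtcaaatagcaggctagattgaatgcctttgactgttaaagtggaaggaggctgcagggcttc
Dido1, outer start with a region, chr2:180710000-180710149, minus strand: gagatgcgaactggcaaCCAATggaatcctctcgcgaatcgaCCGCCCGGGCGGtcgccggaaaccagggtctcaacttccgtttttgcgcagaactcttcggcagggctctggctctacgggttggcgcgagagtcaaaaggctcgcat
Dido1, middle start with an interior region, chr2:180702103-180702252, minus strand: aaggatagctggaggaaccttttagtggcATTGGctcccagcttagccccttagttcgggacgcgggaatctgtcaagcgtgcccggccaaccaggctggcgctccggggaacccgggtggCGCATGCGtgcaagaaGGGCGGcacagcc
Dido1, innermost start without a region, chr2:180692049-180692198, minus strand: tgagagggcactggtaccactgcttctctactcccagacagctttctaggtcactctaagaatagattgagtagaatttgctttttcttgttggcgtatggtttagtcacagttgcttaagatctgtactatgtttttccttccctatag

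The last stretch precedes the start of a lncRNA gene, Gm12843, inside Rnf220 on the opposite strand. It is shown as the best-ranked example of a region at a non-coding start where no listed start of the host is near.

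Gm12843, chr4:117289238-117289387, plus strand: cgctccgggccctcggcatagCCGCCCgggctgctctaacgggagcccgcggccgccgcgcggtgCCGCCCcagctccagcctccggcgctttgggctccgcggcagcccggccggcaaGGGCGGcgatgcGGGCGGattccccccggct

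In the stretch at the held Nfyc start, 64.7% of bases were G or C and the CpG ratio, the observed count of CG pairs over that expected from the base content, was 0.98. At the Nfyc start without a region the values were 48.0% and 0.247. The 2 held Dido1 starts had CpG ratios of 1.19 and 0.724, against 0.156 at the innermost start. The Tnrc6a stretch stands apart from the other 5 of the first set with 46.7% G or C, yet its CpG ratio was 1.33.

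Folds at interior regions were close to those of the other shared regions. The median fold over background at the summit, as the authors' peak caller gave it, was 4.93 in replicate 1 and 5.21 in replicate 2. Regions within 3 kb of a gene end had 5.12 and 5.37, and regions outside genes 4.76 and 5.24. Fold in the interior ran from 3.09 to 18.5 in replicate 1 and from 2.35 to 31.5 in replicate 2. The median summit pileup was 16 and 23 fragments, and a pileup that low carries a wide counting error. For example, a region in Dnmt3a with 13 fragments in replicate 1 had a fold of 4.32 with an exact Poisson 95% interval from 2.44 to 7.16. Such intervals hold the background fixed and cover counting error only.

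Among the 1000 best-ranked peaks of replicate 1 stood 69 of the 245 interior regions (28.2%) and 922 of the 2784 end regions (33.1%). In replicate 2 these were 54 (22.0%) and 784 (28.2%). Interior regions were found in both top lists in 32 cases (13.1%, exact 95% interval 9.11 to 17.9), end regions in 481 (17.3%, 15.9 to 18.7). The intervals of the interior and the end regions overlap. The median width was 764 bp inside genes and 711 bp at gene ends, and the median distance between the summits of the 2 libraries was 112 and 91 bp.

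**Figure D1:**
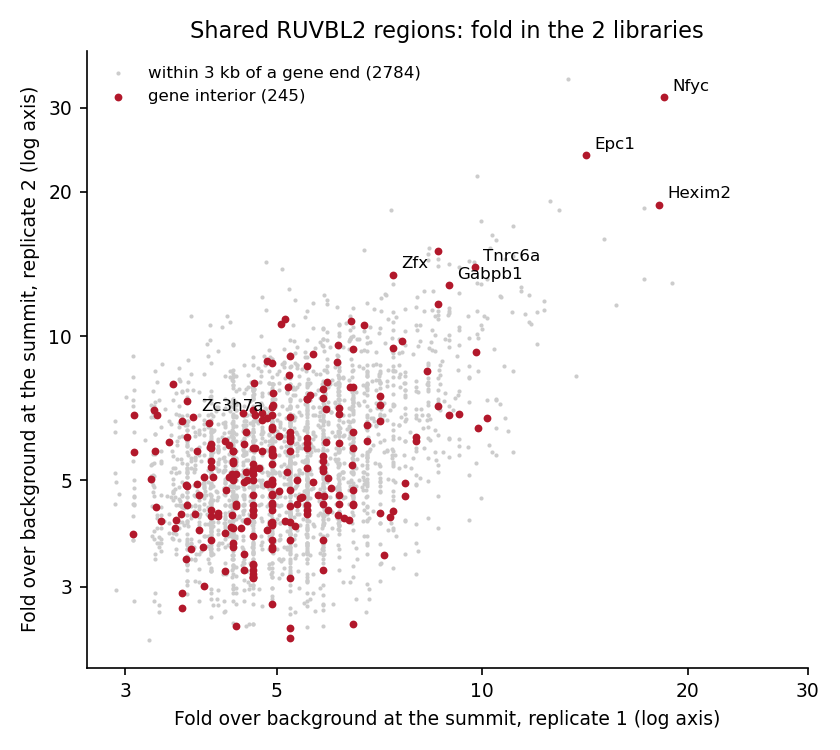
Fold over background at the summit of each shared region in replicate 1 (horizontal) and replicate 2 (vertical), both on log axes; red points are the 245 interior regions and grey points the 2784 regions within 3 kb of a gene end. Nfyc, Hexim2 and Epc1 stand apart at folds of 14.2 or more in both libraries, while the other interior regions lie within the grey cloud.

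The strongest interior region lay in Nfyc, which encodes the C subunit of NF-Y, the factor that binds CCAAT boxes. It covered chr4:120825196-120826200, had folds of 18.5 (95% interval 14.2 to 23.8) and 31.5 (26.2 to 37.6), given here and hereafter in the order replicate 1, replicate 2, and stood at rank 3 in both lists. Its midpoint was 43 bp from a listed start and 5881 bp from the nearest gene end. The next was in Hexim2, an inhibitor of the elongation kinase P-TEFb, with folds of 18.2 (13.9 to 23.4) and 18.8 (15.0 to 23.2); the start table does not list this gene. In Epc1, a subunit of the TIP60 complex that also contains RUVBL2, the folds were 14.2 (10.4 to 18.9) and 23.9 (19.1 to 29.4). These 3 were the regions with a fold of 10 or more in both libraries. In 232 of the 245 regions both folds were below 10.

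Behind these came regions in genes of several kinds. In Tnrc6a, a scaffold of microRNA silencing, the folds were 9.76 (6.95 to 13.4) and 13.9 (10.9 to 17.6). In Gabpb1, a subunit of the ETS-family factor GABP, they were 8.94 (6.04 to 12.8) and 12.8 (9.44 to 17). Phip, a bromodomain protein, had 8.63 (5.79 to 12.4) and 11.7 (8.58 to 15.5) at its start. Bicral, a subunit of a SWI/SNF remodeller, had 8.63 (5.79 to 12.4) and 15.1 (11.4 to 19.5). The 2 Bicral summits lay 909 bp apart and may be different sites. In each of these 4 genes the higher value was in replicate 2, as in 139 of the 245 regions. Over all 3111 shared regions the median folds were 5.05 and 5.35, so the higher value in replicate 2 was not particular to the interior.

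In Kansl1, a subunit of an acetyltransferase complex, the folds were 7.64 and 9.76. The methyl-CpG binding protein gene Zbtb38 had 9.81 and 9.26, and the X-linked transcription factor gene Zfx had 7.4 and 13.4. The 20 best-ranked regions also included those in the ubiquitin ligase genes Rnf114 (7.09 and 7.19) and Rnf220 (6.72 and 10.6). They further included those in Numa1, a spindle pole protein (8.01 and 6.15), in Dpysl2, an axon growth protein (9.86 and 6.42), and in Rfx3, a regulator of cilium genes (6.44 and 10.8). The other members of the 20 were Smim10l1, Prpsap1, Dedd, Zfp638 and Zc3h7a.

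Zc3h7a is a case of its own. Its region had the deepest pileups of all interior regions, 130 fragments in replicate 1 and 295 in replicate 2, on a local background of 33.8 and 42.7, against a lowest background of 2.24 and 2.65 in the lists. The folds were therefore only 3.77 (3.15 to 4.47) and 6.78 (6.03 to 7.59). It was the only interior region with a background over 5 times the lowest and lay 32234 bp from the listed start. Leaving out every shared region of such a background, this one among them, changed the interior share from 7.88% to 7.85%.

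Most interior regions sat at a start of their own host gene. Of the 207 regions whose host is listed, 171 had a listed start of that gene within 1 kb of the midpoint (82.6%, exact 95% interval 76.7 to 87.5), and 115 within 250 bp. Bases within 1 kb of a listed coding start make up 0.525% of the 915 Mb of gene interior. Regions at a host start had median folds of 4.93 and 5.32. In the peaks of replicate 2 alone the share was 75.3%, and in those of replicate 1 alone 81.2%. The 74 other regions comprise 13 with only a non-coding gene end within 1 kb, of which 5 are in hosts that are not listed. A further 28 have neither although the host is listed, and 33 have neither in hosts that are not listed. Among the 20 best-ranked regions these 4 groups held 14, 3, 1 and 2.

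**Figure D2:**
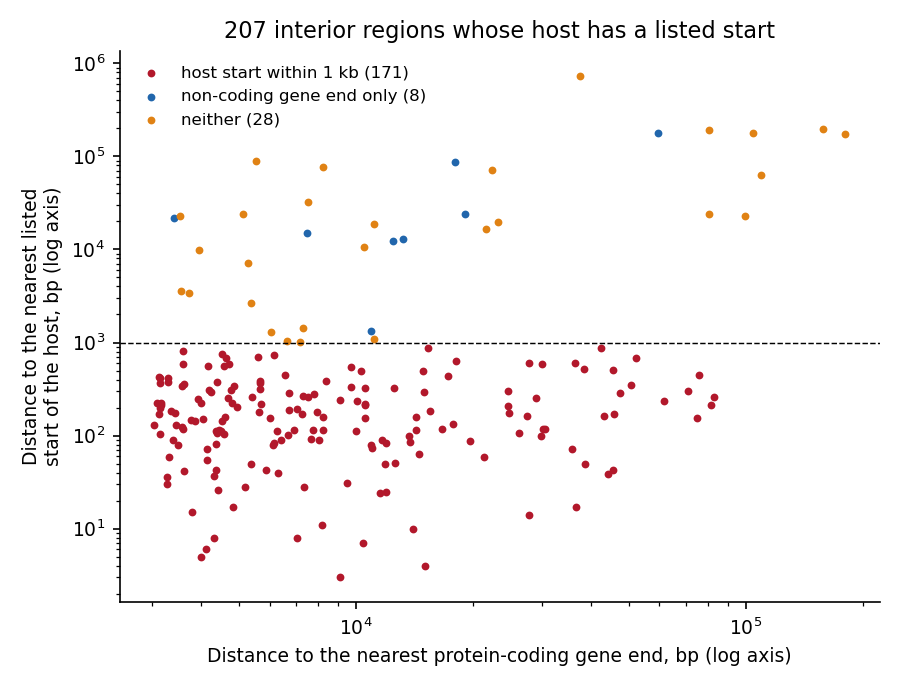
Distance from the midpoint of each of the 207 interior regions with a listed host to the nearest protein-coding gene end (horizontal) and to the nearest listed start of the host (vertical), in bp on log axes; the dashed line marks 1 kb. The 171 red points lie below the line at every distance from the gene end up to 82701 bp, and the other points spread above it.

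These starts were of more than 1 kind. For 117 of the 171 regions the start was the first listed one of the gene, at a median of 5659 bp from the nearest gene end of the gene table. In those genes the body in the gene table reaches beyond the listed start. For 103 of the 171 regions (60.2%) the host had only 1 listed start. No alternative start is listed for those hosts, so these regions are not shown to lie at an alternative promoter. For 54 regions the start was a later one, inside the gene relative to another listed start, at a median of 10972 bp from the nearest end. Folds were close in both kinds, with medians of 4.93 and 5.23 at first starts and 4.98 and 5.49 at later starts.

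Holding a region was uncommon for a start inside a gene. A start holds a region here where a shared region has its midpoint within 1 kb. Of 2370 listed coding starts over 3 kb from every gene end, 165 held one (6.96%, exact 95% interval 5.97 to 8.06). Of 16971 listed starts within 3 kb of a gene end, 2580 did (15.2%, 14.7 to 15.8). First listed starts in gene interiors held a region in 108 of 921 cases (11.7%, 9.72 to 14), and later starts in 57 of 1449 (3.93%, 2.99 to 5.07). The interval of later interior starts lies below that of first interior starts, and that of first interior starts below the 15.3% (14.8 to 15.9) of first starts near an end. With the peaks of replicate 2 alone, the share of interior starts was 14.3%, and with those of replicate 1 alone 8.78%; near gene ends these were 28.8% and 18.3%. How much RNA each start gives in hypothalamus was not analysed here.

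**Figure D3:**
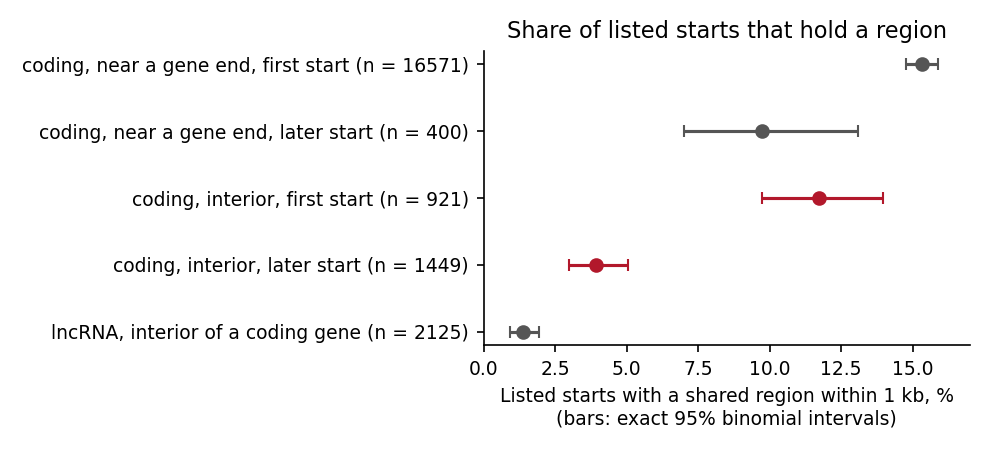
Percent of listed starts that hold a shared region (midpoint at most 1 kb away), by kind of start; bars are exact 95% binomial intervals and red points are coding starts over 3 kb from every gene end. First interior starts reached 11.7% and later ones 3.93%, against 15.3% of first starts near a gene end and 1.36% of lncRNA starts inside coding genes.

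The 68 hosts with 2 or more listed starts and an interior region at one of them allow a comparison within a gene. The held start is itself over 3 kb from every gene end in each of them but Arid1a, where it lies 2784 bp from an end. In 55 of them a single start held a region: a later start in 43 and the first in 12. In the other 13, 2 starts held one. The hosts were chosen for an interior region, so where the first start lay at a gene end, a single held start had to be a later one. The counts of 43 and 12 therefore cannot show a preference for later starts. In 4 of the 13 (Atxn2l, Pafah1b2, Pank1 and Ubtf) both starts, 1008 to 1538 bp apart, were within 1 kb of the midpoint of the same region, which cannot be assigned to either. In the remaining 9 (Dhx30, Dido1, Mllt10, Mrpl48, Pcmt1, Rnf114, Rnf44, Urgcp and Wiz) an end region and an interior region marked separate starts. The genes of these comparisons were named after their values were seen.

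Neither start was stronger throughout in those 9 genes. In Mllt10, a partner of the histone methyltransferase DOT1L, the outer start had folds of 6.44 (95% interval 4.14 to 9.60) and 5.21 (3.20 to 8.08). The region counted for it began downstream, at position 18056339 against 18055237 for the start. Its midpoint was 971 bp from the nearest start merged there. The inner Mllt10 start, 9348 bp from the outer one, had 5.08 (3.03 to 8.07) and 10.6 (7.59 to 14.5). The libraries thus ordered the starts differently. In Mrpl48, a mitochondrial ribosomal protein gene, the outer start had 6.83 (4.39 to 10.2) and 2.96 (2.00 to 4.23), and the inner one, 25171 bp away, 6.47 (4.07 to 9.83) and 5.84 (4.05 to 8.17). In Dido1 the outer start had 4.93 (2.90 to 7.93) and 3.54 (2.41 to 5.03), the middle one 5.22 (3.32 to 7.85) and 8.29 (5.78 to 11.5). In Rnf114 both folds were higher at the inner start, 7.09 and 7.19 against 4.31 and 5.24, with overlapping intervals. In Urgcp both were higher at the outer start, 5.69 and 9.42 against 3.91 and 5.09, also with overlapping intervals. Over the 9 genes and both libraries, Dido1 in replicate 2 was the only case where the intervals of the 2 starts did not overlap.

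In 29 of the 245 cases (11.8%, exact 95% interval 8.07 to 16.6) the host also had a shared region within 3 kb of one of its ends. Of all 16136 protein-coding genes over 6 kb, 2955 had one (18.3%, 17.7 to 18.9). By the listed strand, it was the 5′ end in 19 cases and the 3′ end in 5, and for 5 hosts no strand is listed. With the peaks of replicate 2 alone, the share of hosts with an end peak was 25.5%, and with replicate 1 alone it was 13.1%.

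Along the host genes the regions lay toward the 5′ side. Of the 207 with a listed host, 166 were in the first 50% of the gene from its 5′ end (80.2%), 108 in the first 25% and 11 in the last 25%. The distance to the nearest gene end had a median of 7935 bp: 73 regions lay 3 to 5 kb away and 61 over 20 kb away. On either side of the 3 kb limit, 32 gene-body regions at 2.5 to 3 kb had median folds of 5.28 and 5.65, and 22 at 3 to 3.5 kb had 5.55 and 5.32.

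Summits lay mostly just downstream of the start, as they did at gene ends. At host starts inside genes, 71.3% of replicate 1 summits (exact 95% interval 63.9 to 78.0) and 69.0% of replicate 2 summits (61.5 to 75.8) were downstream, with medians of 123 and 117 bp. For 2246 end regions at a listed start the shares were 70.6% and 69.4%, with medians of 105 and 103 bp. Interior summits were less tightly placed: 60.2% (52.5 to 67.6) and 62.0% (54.3 to 69.3) lay within 250 bp of the start, against 69.5% (67.6 to 71.4) and 73.2% (71.4 to 75.1) at ends. In replicate 2 these intervals do not overlap, and in replicate 1 they meet at 67.6. An interior region was measured to the nearest start of its host, and an end region to that of any coding gene. An end region between genes could thus have starts of several genes near it.

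**Figure D4:**
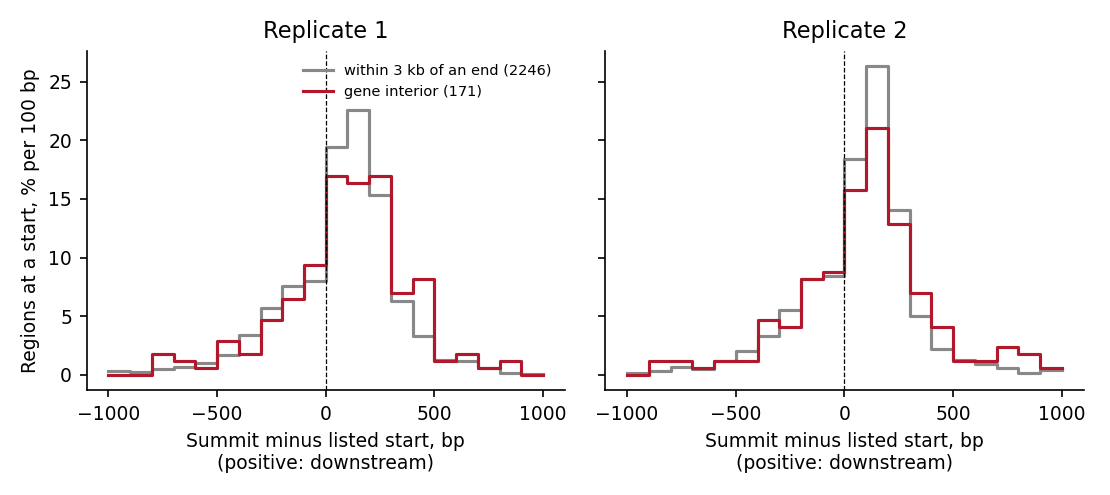
Position of the peak summit relative to the nearest listed start, in bp with positive values downstream, as percent of regions per 100 bp in each library; red is the 171 interior regions at a host start and grey the 2246 end regions at a listed start. Both distributions peak between the start and 300 bp downstream, and the red one is lower at its peak.

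The promoter windows at held interior starts were rich in CpG. Over the 300-base windows of the 171 regions at a host start, the median G+C content was 65.3% and the median CpG ratio 0.886. The windows of end regions at a listed start had 64.7% and 0.878. The 2205 interior starts without a region had medians of 52.0% and 0.298. A G+C content over 50% together with a CpG ratio over 0.6, a common mark of a CpG island, was met by 83.6% of the first (exact 95% interval 77.2 to 88.8), 89.1% of the second (87.7 to 90.3) and 19.2% of the third (17.6 to 20.9).

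The same held between starts of 1 gene. In the 68 hosts with 2 or more listed starts, the 81 held starts had a median CpG ratio of 0.845 and the 75 others 0.340. Of 60 such hosts with a start of each kind, the richest held start had a higher CpG ratio than any other start in 51 (85.0%, exact 95% interval 73.4 to 92.9). Base content thus moved with the presence of a shared region, and its part in the result was not tested. Starts without a shared region could still have peaks nearby. The later Rusc2 start had peaks of both libraries that did not overlap, 395 bp away in replicate 1 and 24 bp away in replicate 2. The later Jmjd1c start had a replicate 2 peak 28 bp away.

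**Figure D5:**
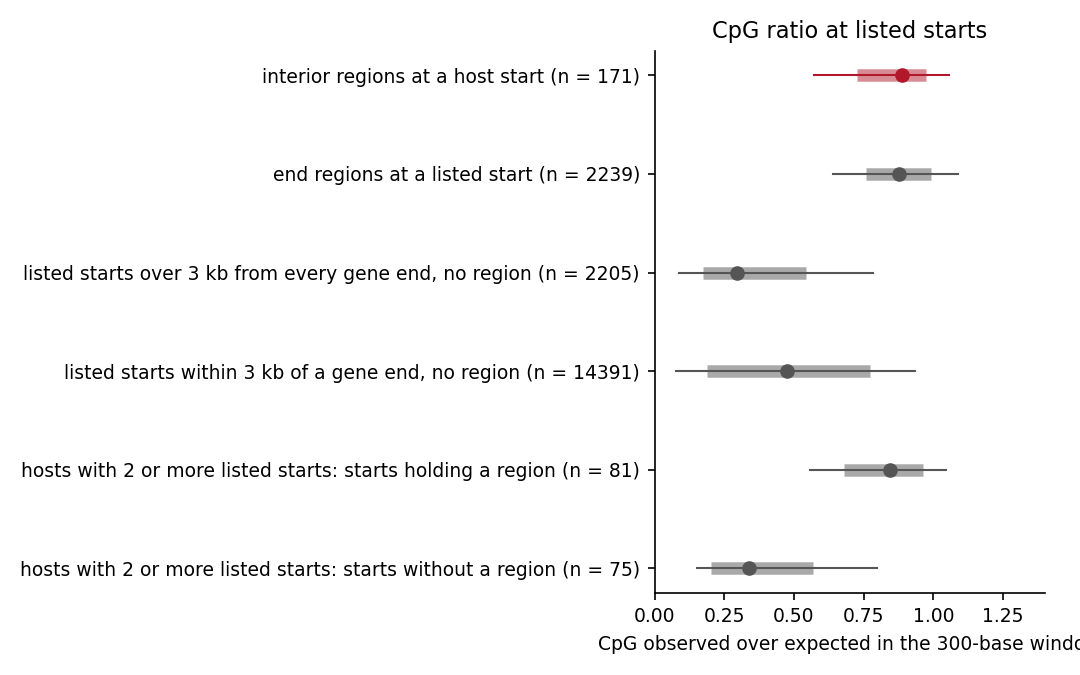
CpG ratio (observed over expected CG pairs) of the 300-base windows at listed starts, by kind of start; points are medians, thick bars the middle 50% and thin bars the range from the 10th to the 90th percentile. The median of interior regions at a host start, 0.886, is close to that of end regions, 0.878, and above that of interior starts without a region, 0.298.

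The 8 motifs were searched on both strands of the whole 300-base windows. GGGCGG, the GC box bound by SP factors, was in 69.6% of windows at interior regions (exact 95% interval 62.1 to 76.4), 73.9% at end regions, 29.5% at interior starts without a region and 44.9% of all 19341 listed coding starts. CCGGAAG, the core of ETS sites, was in 15.8% (10.7 to 22.1), 23.2%, 4.31% and 11.2%. AAGATGG, a YY1 core, was in 9.94% (5.90 to 15.4), 11.9%, 4.22% and 6.20%. TATAAA went the other way, with 2.92% (0.956 to 6.69), 4.38%, 12.7% and 13.2%.

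CCAAT, the box that NF-Y binds, was in 29.2% of windows at interior regions (22.5 to 36.7), 33.6% at end regions, 35.5% at interior starts without a region and 38.7% of all. CGCATGCG (NRF1 core) was in 2.92%, 5.27%, 0.771% and 2.41%, and TGACGTCA (CRE) in 2.34%, 4.38%, 1.41% and 2.22%. ACTACAATT (ZNF143 core) was in none of the 171 interior windows, for which the exact interval reaches 2.13%, and in 0.507% of all. Matches of different motifs may overlap, and a window counts once per motif however often the letters recur, as the GC box does in the Phip stretch. GC boxes and ETS cores contain CG, and the CpG content of the windows moved with their shares. A match is a string of letters and not a measured site.

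Non-coding genes accounted for fewer of the regions. A non-coding gene end was within 1 kb of the midpoint in 38 of 245 regions (15.5%, exact 95% interval 11.2 to 20.7), and 33 regions overlapped a non-coding gene. Such bases make up 1.46% of the gene interior. The share was 14.8% (13.5 to 16.2) for end regions and 48.1% (36.9 to 59.5) for regions outside protein-coding genes. The nearest gene was a lncRNA in 36 cases, a microRNA in 1 and a miscellaneous RNA, Gm4633 in the CD47 gene Cd47, in 1. In 25 of the 38 a host start was also within 1 kb, which leaves 13 with a non-coding end only. For 5 of these 13 the host is not listed, so a host start could not be looked for.

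Where a host start and a lncRNA start were both within 1 kb, the genes nearly always ran in opposite directions. There were 20 such regions, and in 19 of them the strands were opposite (95%, exact 95% interval 75.1 to 99.9). Examples are Pcmt1 with A630066F11Rik (folds 5.85 and 7.44), Tasor with Gm52095 (8.94 and 6.86), Pdpk1 with Gm33409 (5.24 and 6.12) and Slc35d1 with Gm46864 (7.71 and 4.64). Pcmt1 encodes an enzyme that repairs damaged aspartyl residues, Tasor a subunit of the HUSH silencing complex and Pdpk1 a protein kinase of growth factor signalling. The exception was Prdm10 with Gm10910 on the same strand (10.2 and 6.75). A ChIP signal has no strand, so which gene of a pair a region belongs to cannot be told apart. The share of opposite strands among all listed pairs of coding and lncRNA starts was not measured. The 95% is thus not shown to be particular to bound starts. Divergent and overlapping pairs on opposite strands were not separated.

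Of 2125 lncRNA starts listed inside gene interiors, 29 held a region (1.36%, exact 95% interval 0.916 to 1.95). Their windows had a median CpG ratio of 0.913, against 0.234 for the 2096 without a region. G+C content was 67.3% and 48.3%. Of the 26 interior regions with a lncRNA start within 1 kb, 20 also had a host start that near. The lncRNA starts were not split by a nearby coding start, so these values are not particular to lncRNA starts.

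Among the 13 regions at a non-coding end only, Epc1 led. Its midpoint was 28 bp from an end of the microRNA gene Mir1893. Epc1 has no listed start, so its own promoters were not placed, and its sequence is not shown here. The Rnf220 region was 38 bp from the start of Gm12843, shown earlier, and 86035 bp from the listed start of the host. The Dpysl2 region was 195 bp from an end of Gm5464, in a host that is not listed. The Pfdn4 region (4.66 and 5.85), in a prefoldin subunit gene, was 355 bp from the start of Gm16796 and 15144 bp from the host's start. The Usp42 region (4.31 and 5.15), in a deubiquitinase gene, was 141 bp from an end of Gm38737.

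The Trappc9 region lay at an imprinted non-coding gene. Peg13 is a lncRNA within an intron of Trappc9, a trafficking complex gene, and is transcribed from the paternal allele in brain. The region, chr15:72809495-72810310, was 421 bp from an end of Peg13 and 162141 bp from the nearest coding gene end. Its folds were 4.92 (95% interval 2.89 to 7.92) and 4.93 (3.33 to 7.05). The peak lists do not separate alleles.

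Regions with neither kind of start nearby had lower median folds where the host was listed, with overlapping spreads. The 28 in listed hosts had median folds of 4.63 and 4.55, against 4.93 and 5.32 at host starts. The middle 50% ran from 4.47 to 4.94 and 3.99 to 5.29, against 4.32 to 5.91 and 4.37 to 6.77. Of the 28, 5 had a listed start within 2 kb, 5 had one 2 to 10 kb away, and 18 over 10 kb away. In 9 of these 18 the distance exceeded 50 kb. The 33 regions in hosts that are not listed had medians of 4.93 and 5.41, near those at host starts, and 5 regions at a non-coding end were also in such hosts.

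The 5 regions farthest from any gene end included 4 of those 28. In Nfia, a transcription factor of glia and neurons, the region was 179742 bp from an end (folds 4.62 and 3.15). In Arid1b, a SWI/SNF subunit, it was 157666 bp away (5.86 and 3.75). In Stox2, a winged-helix protein gene, it was 109060 bp away (4.62 and 4.44), and in Igf1r, the receptor of insulin-like growth factors, 104156 bp away (4.93 and 7.11). Trappc9 was the fifth. The lower bound of the counting interval was 1.88 for Nfia in replicate 2 and 2.3 for Arid1b, so these were among the less certain members.

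Only 4 of the 241 hosts had 2 interior regions, and none had more. Dnmt3a, the de novo DNA methyltransferase gene with known alternative starts, had a region at its first listed start (4.32 and 5.76) and another 1038 bp from it (4.62 and 3.33). Phip was alike, with its second region 1006 bp from the start (4.84 and 4.90). In Hivep2, a zinc-finger transcription factor gene, the regions were 1293 bp (4.53 and 4.11) and 16735 bp (4.62 and 5.0) from the listed start. In Chd9, a chromodomain remodeller gene, both were over 20 kb from a listed start, at 23063 bp (4.62 and 5.24) and 23778 bp (4.20 and 3.88).

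Among the widest regions were those in Bicral (2367 bp), Stag1 (2036 bp), Ywhaz (1895 bp) and Gtf2i (1713 bp). Stag1 encodes a cohesin subunit, and its region lay 170 bp from the first listed start (5.65 and 4.96). Ywhaz encodes a 14-3-3 protein and had folds of 5.55 and 8.67. Gtf2i, a transcription factor gene, had 5.55 and 4.33 at a point 374 bp from its start. Bicral and Ywhaz have no listed start.

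The hosts were long genes, which the rule favours because a longer gene has more interior. The lengths therefore cannot show a preference for long genes. The median length of hosts was 61176 bp, against 17217 bp for all protein-coding genes. The 16136 genes over 6 kb, the ones long enough to have an interior, had a median of 27278 bp, and 1.49% of them were hosts. Regions were on 20 chromosomes, with 24 on chromosome 5, 2 on X and none on Y.

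The gene lists were drawn up with earlier results of these data known, so their counts describe the hosts and support no direction. Over all protein-coding genes 1.11% were hosts, and over those longer than 6 kb 1.49%. The intervals beside the lists are exact 95% binomial ones and are wide. Chromatin regulators included 10 hosts of 82 measured genes (12.2%, 6.01 to 21.3). Among them Epc1, Hdac4 (6.47 and 7.82), Chd2 (6.13 and 8.85) and Brd3 (5.55 and 7.41) ranked best; Hdac4 encodes a histone deacetylase, Chd2 a remodeller and Brd3 a bromodomain reader. Transcription factors and cofactors included 7 of 67 (10.4%, 4.30 to 20.3), led by Nfyc, Gabpb1, the glucocorticoid receptor gene Nr3c1 (7.09 and 6.64) and the calmodulin-binding activator gene Camta1 (4.93 and 5.41). The Camta1 region was 732753 bp from the gene's listed start. RNA-binding and splicing genes included 7 of 70 (10.0%, 4.12 to 19.5), led by Zc3h7a, Tnrc6a, the translation regulator gene Cpeb2 (4.66 and 6.85) and the splicing regulator gene Mbnl1 (4.62 and 5.25), the last at a later listed start.

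Ubiquitin pathway genes included 5 of 42 (11.9%, 3.98 to 25.6), with Rnf220, the deubiquitinase genes Usp34 (6.15 and 9.60), Usp7 (5.55 and 7.41) and Usp54 (4.63 and 7.99). Kinases, phosphatases and their regulators included 5 of 61 (8.20%, 2.72 to 18.1), with the phosphatase subunit gene Ppp2r5c (5.24 and 5.75), the clock kinase gene Csnk1e (6.47 and 6.30) and Map2k5 (5.04 and 4.76). Cytoskeleton and scaffold genes, listed as genes with several promoters, included 3 of 34 (8.82%, 1.86 to 23.7). These were the actin regulator gene Abi2 (4.46 and 6.91), Epb41l3 (3.85 and 4.66) and the cytoskeletal crosslinker gene Macf1 (4.01 and 4.33). These lists were made of long genes: their medians ran from 33608 bp for RNA-binding genes to 172328 bp for cytoskeleton genes.

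The list of synaptic and axonal genes was drawn up for genes with several promoters. With a median length of 307970 bp, it included 3 hosts of 46 genes (6.52%, 1.37 to 17.9). These were Gphn, the scaffold of inhibitory synapses (4.20 and 6.03), Gabrb1, a GABA-A receptor subunit gene (4.93 and 4.34), and Dlgap4, a postsynaptic scaffold gene (3.48 and 6.02). All 3 regions had their midpoint within 1 kb of a listed start of the gene, the first one in Gphn and Dlgap4 and a later one in Gabrb1. In Gabrb1 the midpoint was 865 bp from that start, and the summits lay 1170 and 710 bp downstream of it. None of 31 ion channel and transporter genes was a host of a shared region, for which the exact interval reaches 11.2%. Replicate 2 peaks not met by replicate 1 lay inside Itpr1 (4.65), Cacna1a (4.66), Cacna1d (4.11) and Scn2a (3.08) of this list. Other lists also had such peaks. Among appetite and hypothalamic genes 1 of 35 was, Nr3c1, and among genes of RUVBL-containing complexes 1 of 37 was, Epc1.

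The list of imprinted genes and their intragenic promoters included 3 hosts of 28 measured genes (10.7%, exact 95% interval 2.27 to 28.2). Besides Trappc9 these were Impact (4.62 and 5.41), which is not listed, and Inpp5f (4.62 and 3.13). Inpp5f has an imprinted variant that starts from an internal promoter. The Inpp5f region lay 76841 bp from the listed start, at 0.90 of the length of the gene from its 5′ end; a start for the variant is not in the table. None of the 52 marker genes of oligodendrocytes, astrocytes, microglia and vascular cells was a host, and their lists hold shorter genes, with medians from 11716 to 42892 bp. Counts of 0 or 1 in lists of this size are near the share over all genes. Peaks measure binding, so the labelled tissue was not checked against marker expression.

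Interior peaks were found again in the other library a little less often than end peaks. Of 327 interior peaks of replicate 1, 252 were met by replicate 2 (77.1%, exact 95% interval 72.1 to 81.5), against 80.6% (79.3 to 81.9) of end peaks. Of 573 interior peaks of replicate 2, 247 were met by replicate 1 (43.1%, 39.0 to 47.3), against 50% (48.7 to 51.3) of end peaks. For replicate 2 the interval inside genes lies below that at ends.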

How the data were processed

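Peaks were called by the authors in each ChIP library. MACS2 2.1.0, Bowtie2 2.3.4.1, Trimmomatic 0.33, bcl2fastq 2.17 and ChIPseeker stand in the submitters' processing notes, with the build GRCm38. Their settings, and which control the caller had, are not given in the sources used. The deposited lists give for each summit a −log10 p, a −log10 q and a fold (ratio) over the background that the authors' caller used. The deposited score column is derived from the −log10 q and was not used further. These are the authors' values, used within a list.

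Summit pileup and background were solved from fold and −log10 p of each deposited peak (fold with 1 added to both); whole pileups solved 100% of peaks, with a miss in −log10 p of at most 0.0001 of its value. The step was tested on simulated data. Depth is known only from the pileups, not from library totals.

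Peaks overlapping by at least 1 bp were joined. Genes came from RefSeq (GRCm38.p6, 49603 rows, 21779 protein-coding); 340 rows in the first 3 Mb of a chromosome, a gap, were left out. That table has no strand or exons, so exon, intron and UTR were not assigned. No genome sequence was used, and none is shown for genes missing from the start table, such as the 9 regions on chromosome 18. Shares carry exact Clopper-Pearson intervals; folds carry exact Poisson intervals. No p-value was computed: both libraries form 1 group, and regions are not replicates.

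The members and lists were chosen with earlier results of these data known. Named genes were the 20 best regions by their worse rank of −log10 p, hosts with 2 regions, the best-ranked at non-coding ends, up to 4 hosts per list, a region of high background, and the 5 farthest and 5 widest; 1 of these genes is not reported here. Python 3.11.15, pandas 2.3.3 and scipy 1.17.1 were used. Alternatives changed the distance limit, overlap, threshold, position and library.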

Additional observations from a re-analysis of the deposited data

How the results depend on the processing

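Of 109 values under alternatives, 69 stayed within 1.5 times the count or within the 95% interval of the reported value, and 40 moved; none changed direction, as none has a sign. The alternatives for starts were chosen after seeing the data. A minimum distance to a gene end of 1 kb gave 473 interior regions (15.2%), a median fold of 5.13 in replicate 1, a median distance of 3153 bp and 7.82% of hosts with an end region. With 5 kb, the interior share was 5.53% and the median distance 12490.5 bp. With 10 kb there were 107 regions (3.44%), 22.4% at a non-coding end, 24463 bp, 22.4% of hosts with an end region, and 76.5% at a host start. A −log10 q of at least 5 in both lists also left 107 regions, with median folds of 5.93 and 6.20, 5.61% of hosts with an end region, 91.3% at a host start and 3.38% of interior starts holding one. Non-coding ends within 250 bp or 3 kb were found at 6.94% and 20.8%. Host starts within 250 bp were found at 55.6% and within 0.5 kb at 73.4%, and 4.6% of interior starts held a region within 250 bp. Summits within 250 bp gave 5.40% of interior starts. Single lists, leaving out 1 replicate each, gave 327 to 573 interior peaks, 8.29% to 8.95% of all, 13.1% to 25.5% of hosts with an end peak, 75.3% to 81.2% at a host start and 8.78% to 14.3% of interior starts. Median folds were then 4.84 in replicate 1 and 4.63 in replicate 2; a list has no fold of the library left out. Distance limits and thresholds change which regions are counted by construction; for the single lists the cause was not tested. No paired analysis was possible because the values come from no test and only the ChIP group has values used here. Low pileups limit what single regions show.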

Other observations

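Interior peaks of 1 library alone also lay mostly at host starts, with shares under the 82.6% (76.7 to 87.5) of shared regions; the intervals overlap for replicate 1 and not for replicate 2. Replicate 1 had 75 such peaks in as many genes, with a median fold of 4.32 on a pileup of 14. Of the 63 with a listed host, 47 lay within 1 kb of a start of that gene (74.6%, exact 95% interval 62.1 to 84.7). The best-ranked were in Phc2, a Polycomb gene (fold 6.78, exact Poisson 95% interval 4.32 to 10.2), and Clybl (6.47, 4.07 to 9.83). The strongest gene on a list of kinases was Map3k1 (6.15, 3.83 to 9.43).

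Replicate 2 had 326 such peaks in 316 genes, with a median fold of 4.23 on a pileup of 18. Of the 264 with a listed host, 183 lay at a start of it (69.3%, 63.4 to 74.8). The best-ranked were in Tbc1d14 (8.23, 5.77 to 11.4), Rfx1, a transcription factor gene (6.94, 4.98 to 9.42), and Dennd6a (7.96, 5.49 to 11.2). Tpm1, a tropomyosin gene with known internal promoters, had a peak 5527 bp from its listed start (7.32, 5.05 to 10.3). A non-coding gene end was within 1 kb of 12% of the single-library peaks of replicate 1 and 11.7% of those of replicate 2, against 15.5% of the shared regions. These genes were named after their values were seen.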
